A study of Mus musculus with 71 samples.

Results

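The genes described here are those that license and start DNA replication: Mcm2, Mcm3, Mcm4, Mcm5, Mcm6, Mcm7, Mcm10, Cdc6, Cdt1 and Cdc45, 10 of the 37620 genes in the count table. They were chosen by name, with earlier results of these data known. They were measured by RNA sequencing in mouse embryos of an allelic series at the miR-17~92 locus, a cluster of microRNAs cut from 1 primary transcript. C57BL/6 embryos of embryonic day 9.5 with 20 to 22 somites were separated by dissection into tail bud, heart and what was left, called here the embryo remainder. There were 8 genotypes in each of the 3 tissues and 71 libraries, 3 per group except 2 for Delta_17_18_92 in the embryo remainder.

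Wild-type embryos have an intact locus and Full-KO embryos lack the cluster. In Delta_17 embryos miR-17 and miR-20a are deleted, in Delta_18 miR-18a, in Delta_19 miR-19a and miR-19b-1, and in Delta_92 miR-92a-1. Delta_17_18 and Delta_17_18_92 combine these losses. The genotypes that lack miR-17 and miR-20a are 4 (Full-KO, Delta_17, Delta_17_18 and Delta_17_18_92), and those that hold them are 4 (wild type, Delta_18, Delta_19 and Delta_92). The labels name each deletion but not its zygosity or the embryo's sex or litter, and the tissues are mixtures of cell types. In such bulk RNA, fewer cells of a type and less RNA per cell cannot be told apart.

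Replication origins are licensed before S phase, when the origin recognition complex, Cdc6 and Cdt1 load the MCM helicase, a ring of the subunits Mcm2 to Mcm7, onto DNA. Geminin, encoded by Gmnn, binds Cdt1 and blocks renewed loading after origins have fired, while Cdc45 and the GINS complex join the ring to form the active helicase and Mcm10 assists its activation. Most of these genes are transcribed as cells enter the cell cycle, under E2F factors, so their RNA is commonly read as a sign of cycling cells. E2f1 is itself a well-known target of the miR-17 seed family.

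The sequences below show which of the cluster's microRNAs could pair with licensing transcripts. The 6 mature microRNAs fall into 4 families by their seed, bases 2 to 8, printed in capitals (RefSeq, GRCm38.p6).
mmu-miR-17-5p: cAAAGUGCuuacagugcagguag
mmu-miR-20a-5p: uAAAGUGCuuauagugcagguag
mmu-miR-18a-5p: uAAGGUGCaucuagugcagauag
mmu-miR-19a-3p: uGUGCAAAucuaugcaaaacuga
mmu-miR-19b-3p: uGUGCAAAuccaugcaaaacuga
mmu-miR-92a-3p: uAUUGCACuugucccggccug
Mcm7 is the host gene of another cluster, whose hairpins lie within it on chromosome 5, on the same strand. Of its microRNAs, miR-106b and miR-93 share the miR-17 seed and miR-25 shares the miR-92 seed, and the labels name no deletion at that locus.
mmu-miR-106b-5p: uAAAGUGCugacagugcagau
mmu-miR-93-5p: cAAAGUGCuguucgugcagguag
mmu-miR-25-3p: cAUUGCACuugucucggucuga

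Only 2 of the 10 genes held a seed match of any of the 4 families in their longest annotated 3′ untranslated region (GENCODE M21), and both matches were to miR-17. Mcm3 held an 8mer (a match to bases 2 to 8 followed by A) that starts at base 284 of its 488-base region, at chr1:20803155-20803182 of GRCm38 on the minus strand with 10 flanking bases on each side. Mcm7 held a 7mer-m8 (a match to bases 2 to 8 alone) at base 82 of 136, at chr5:138164621-138164647, also on the minus strand. The matches are in capitals.
Mcm3 site: ccacccccagGCACTTTAgtccaggaag
Mcm7 site: ctcccatgctGCACTTTtttattctgc
Over 19815 genes with such a region, 12.5% held a miR-17 match and 3.65% an 8mer, while matches to miR-18, miR-19 and miR-92 stood in 8.72%, 12.0% and 7.04%. A match describes the letters in this window and is not a measured site.

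Mcm3 was the licensing gene that rose most often. It was higher than in wild type, past the threshold of an adjusted p of 0.05 (edgeR's quasi-likelihood test, Benjamini-Hochberg over all genes tested), in 9 of 21 comparisons of a mutant genotype with wild type in the same tissue. All 9 were in genotypes that lack miR-17 and miR-20a. Mcm3 is the subunit through which the MCM ring first meets Cdc6 and the origin recognition complex. Levels are given as CPM, counts scaled to the library total after TMM normalisation, which compare a gene between libraries but not 1 gene with another.

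In tail bud the 3 wild-type libraries stood at 471, 444 and 427 CPM of Mcm3. The Full-KO libraries were at 522, 504 and 510, those of Delta_17 at 533, 548 and 564, those of Delta_17_18 at 525, 495 and 518, and those of Delta_17_18_92 at 495, 517 and 561. Every library of the 4 genotypes without miR-17 and miR-20a was above every library of the 4 genotypes that hold them, 12 libraries at 494.9 to 564.2 CPM against 12 at 411.5 to 470.8. The log2 fold changes against wild type were 0.18 ± 0.05 (SE) in Full-KO (adjusted p = 0.0241), 0.28 ± 0.05 in Delta_17 (0.00207), 0.19 ± 0.05 in Delta_17_18 (0.0258) and 0.22 ± 0.05 in Delta_17_18_92 (0.0106). In Delta_18, Delta_19 and Delta_92 the values were -0.06, -0.09 and -0.02, none past the threshold.

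**Figure D1:**
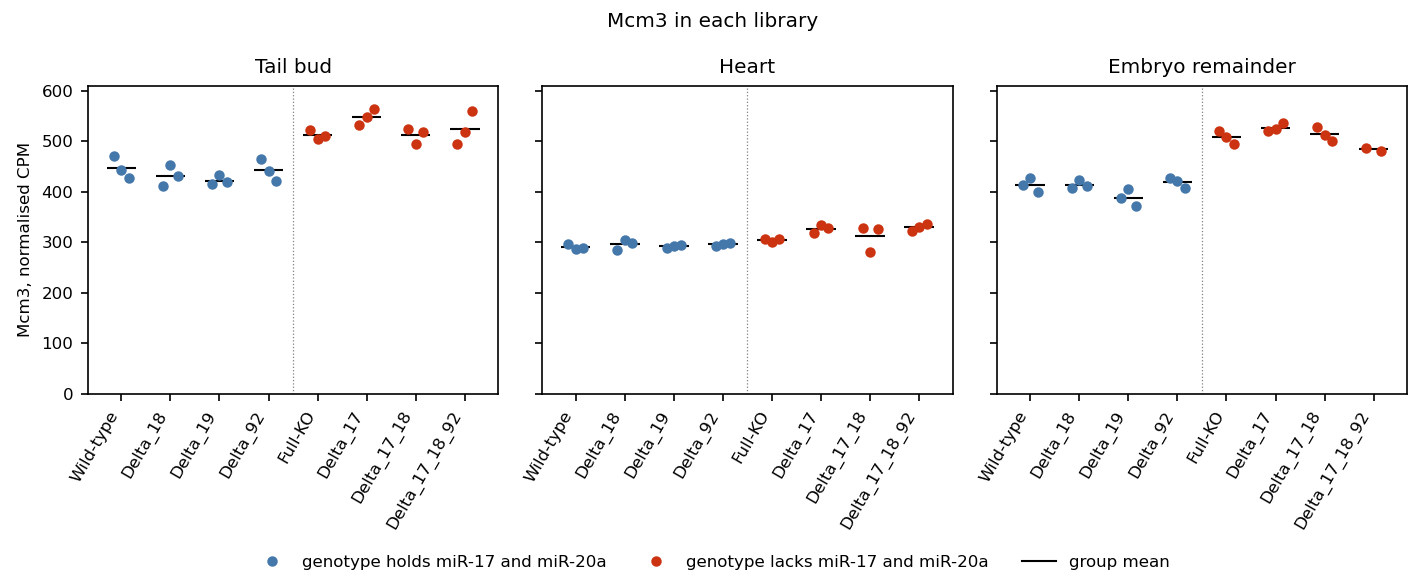
Mcm3 in each of the 71 libraries as TMM-normalised CPM (y axis, from 0) by genotype (x axis) and tissue (panel), with the group mean as a bar, 3 libraries per group and 2 for Delta_17_18_92 in the embryo remainder. In tail bud and the embryo remainder all red libraries (no miR-17 or miR-20a) lie above all blue ones, while in heart the ranges, 281.4 to 336.7 and 284.7 to 304.5 CPM, overlap.

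In the embryo remainder, wild-type libraries held 413, 427 and 399 CPM of Mcm3, Full-KO 520, 508 and 494, Delta_17 521, 524 and 536, Delta_17_18 527, 513 and 500.0, and the 2 libraries of Delta_17_18_92 487 and 481. The 11 libraries without miR-17 and miR-20a were at 481.3 to 535.8 CPM and the 12 with them at 371.9 to 427.4, with no overlap. Mcm3 rose by a log2 value of 0.29 ± 0.04 in Full-KO (adjusted p = 2.5e-06), 0.35 ± 0.04 in Delta_17 (4.12e-07), 0.31 ± 0.04 in Delta_17_18 (3e-06) and 0.22 ± 0.04 in Delta_17_18_92 (0.00108). The largest of these, 0.35, corresponds to a fold of 1.27.

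In heart Mcm3 was lower in all genotypes and moved less. Wild-type libraries were at 297, 286 and 290 CPM, Full-KO at 306, 301 and 307, Delta_17 at 319, 333 and 328, Delta_17_18 at 329, 281 and 325, and Delta_17_18_92 at 322, 330 and 337. Only Delta_17_18_92 passed the threshold (0.16 ± 0.04, adjusted p = 0.0387). The values of Delta_17 (0.17, adjusted p = 0.0674), Delta_17_18 (0.11, 0.217) and Full-KO (0.07, 0.381) did not pass, although every Full-KO and Delta_17 library was above every wild-type one. Replicate 2 of Delta_17_18 was low for most of the genes, with 282 CPM of Mcm2 against 332 and 317 in the other replicates.

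Leaving out 1 library at a time kept all 4 calls for Mcm3 in the embryo remainder and that of Delta_17 in tail bud. The Full-KO call in tail bud was lost without wild-type replicate 3 (adjusted p = 0.0967), Full-KO replicate 1 (0.0881) or replicate 3 (0.0722), and that of Delta_17_18 without wild-type replicate 3 (0.1004) or any 1 of its own libraries (0.0528 to 0.102). The call of Delta_17_18_92 was lost in tail bud without its replicate 3 (0.0672) and in heart in each such fit except the 1 without its replicate 1 (0.0462), the others giving 0.0964 to 0.147.

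All these comparisons use the same wild-type libraries of a tissue, so they are not independent of each other. A second model uses all libraries of a tissue, marks which seed families are missing from every library, and estimates 4 additive terms per tissue. The miR-17 term of Mcm3 was lowest in heart, at 0.12 ± 0.03 (adjusted p = 0.00323), followed by tail bud at 0.29 ± 0.03 (6.42e-08) and the embryo remainder at 0.33 ± 0.03 (2.23e-11). It passed in every fit that left out 1 library (highest adjusted p = 0.0361, in heart). The miR-18, miR-19 and miR-92 terms of Mcm3 lay between -0.06 and 0.01, and none passed.

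Within the MCM ring the change showed as a shift in proportion. Mcm3 counts as a percentage of the counts of all 6 subunits were 21.1% to 22.1% in the 12 tail bud libraries without miR-17 and miR-20a and 16.6% to 18.7% in the 12 with them. The ranges were 20.4% to 21.8% against 18.1% to 19.5% in heart and 20.0% to 21.3% against 16.2% to 17.5% in the embryo remainder. On this measure the groups did not overlap in any of the 3 tissues, heart included. A higher share of 1 subunit lowers the others' shares by construction, and a fall of the others raises its share. In Full-KO heart Mcm3 had a log2 value of 0.07 against wild type. The other subunits were below 0 there, Mcm5 at -0.23, Mcm4 at -0.14, Mcm6 at -0.12 and Mcm2 and Mcm7 at -0.06, with only Mcm5 past the threshold. The share is thus not a measure of Mcm3 alone. The total of the 6 subunits ranged from 0.247% to 0.262% of all counts over the group means in tail bud, 0.129% to 0.143% in heart and 0.253% to 0.275% in the embryo remainder.

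**Figure D2:**
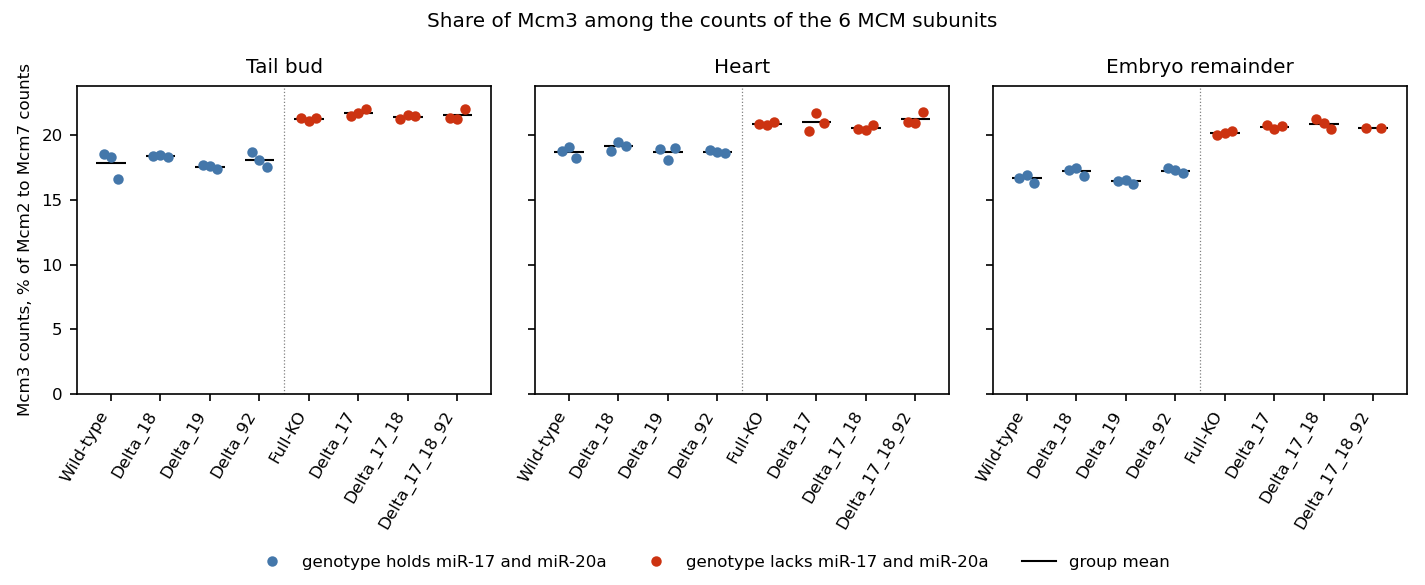
Mcm3 counts as a percentage of the counts of Mcm2 to Mcm7 (y axis, from 0) in each library by genotype and tissue, with group means as bars. Libraries without miR-17 and miR-20a (red) lie above those that hold them (blue) in all 3 panels, the narrowest gap being in heart, 20.4% against 19.5%.

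Mcm5, which forms with Mcm2 the gate through which the ring opens to load, moved the other way. It fell in 7 of the 21 comparisons, all in genotypes that lack miR-17 and miR-20a and at least 1 further family, and its log2 value was below 0 in 20 of 21. In Delta_17 it did not pass by edgeR (-0.21 in tail bud, adjusted p = 0.102), but DESeq2 called it in tail bud (0.0382) and in the embryo remainder (-0.12, 0.0128). The tail bud value of Delta_17 was -0.28 without wild-type replicate 2, where edgeR called it (0.0128), and -0.10 without wild-type replicate 3. No genotype that holds miR-17 and miR-20a passed by edgeR. In tail bud Mcm5 was at -0.23 in Delta_18 (adjusted p = 0.222), -0.18 in Delta_19 (0.143) and -0.11 in Delta_92 (0.476). In the same order the values were -0.09, -0.13 (0.0619) and -0.05 in the embryo remainder, and -0.03, -0.05 and 0.04 in heart. The differences of Delta_17 and of these genotypes from the combined deletions were not tested. In tail bud, wild-type libraries were at 484, 455 and 573 CPM, Full-KO at 422, 409 and 412, Delta_17_18 at 418, 391 and 412, and Delta_17_18_92 at 406, 418 and 435. No mutant library of these 3 genotypes reached the lowest wild-type one, and the wild type itself was spread widely because replicate 3 stood apart. The log2 fold changes were -0.29 ± 0.06 (adjusted p = 0.00404), -0.31 ± 0.06 (0.00397) and -0.27 ± 0.06 (0.0101).

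Wild-type tail bud replicate 3 was high not in Mcm5 alone but also in Mcm7, at 312 CPM against 266 and 249, and it was the lowest of the 3 in Cdt1, at 94.99 against 116 and 112. Without that library the Mcm5 values shrank to -0.18 in Full-KO (adjusted p = 0.0315), -0.21 in Delta_17_18 (0.0246) and -0.16 in Delta_17_18_92 (0.0794, no longer a call). The last was also lost without replicate 1 of Delta_17_18_92 (0.0624). With only the 2 groups compared in the fit, none of the 7 tail bud calls of Mcm3 and Mcm5 passed (adjusted p from 0.166 to 0.264). Calls fell over all genes in that fit, to 198 of 16107 in Full-KO from 1776 of 17009. The Full-KO log2 values there were 0.18 for Mcm3 and -0.29 for Mcm5.

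The summed CPM of 7 primitive erythroid markers moved with 2 of the 3 tail bud groups in which Mcm5 fell. It was 3597 to 5391 in wild type, 768.9 to 3405 in Full-KO and 1439 to 2932 in Delta_17_18_92, but 3229 to 7129 in Delta_17_18. None of the 7 markers was at 0 in any library, and their part in the Mcm5 difference was not tested.

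In the other tissues the fall in Mcm5 was smaller. Heart libraries of wild type were at 267, 238 and 256 CPM and those of Full-KO at 217, 208 and 218, a log2 change of -0.23 ± 0.05 (adjusted p = 0.0074). That call was lost without wild-type replicate 1 (0.0689) or Full-KO replicate 2 (0.0703). In the embryo remainder wild type stood at 499, 488 and 475 CPM, Full-KO at 457, 446 and 432, Delta_17_18 at 427, 429 and 434, and Delta_17_18_92 at 428 and 419. These gave -0.13 ± 0.04 (0.0231), -0.18 ± 0.04 (0.00241) and -0.21 ± 0.04 (0.00125), with no overlap between a mutant group and wild type.

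The call of Full-KO in the embryo remainder held without wild-type replicate 3 or Full-KO replicate 1 and was lost without any other single library (highest adjusted p = 0.137). That of Delta_17_18 held throughout, and that of Delta_17_18_92 was lost without its replicate 2 (0.0508). Summed erythroid markers in the embryo remainder were at 2432 to 3643 CPM in wild type, 2376 to 2857 in Full-KO, 2552 to 4566 in Delta_17_18 and 1994 to 2062 in Delta_17_18_92. The last group also stood above wild type in summed cardiomyocyte markers (407.8 to 591.7 CPM against 247 to 320.5) and endothelial markers (396.9 to 421.8 against 350.5 to 368.2). It stood below wild type in summed somite markers (148.9 to 151.1 against 157.6 to 164). The part of these markers in the Mcm5 difference was not tested. No single family term of Mcm5 passed in any tissue by edgeR with all libraries, the nearest being miR-19 in heart (-0.10 ± 0.03, adjusted p = 0.0562). The miR-17 term of Mcm5 in the embryo remainder passed with DESeq2 (-0.07, adjusted p = 0.0372), without the Full-KO libraries (-0.10, 0.00494) and without Delta_19 replicate 1 (-0.08, 0.0449), and the miR-19 term there passed without the Full-KO libraries (-0.12, 0.0475).

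**Figure D3:**
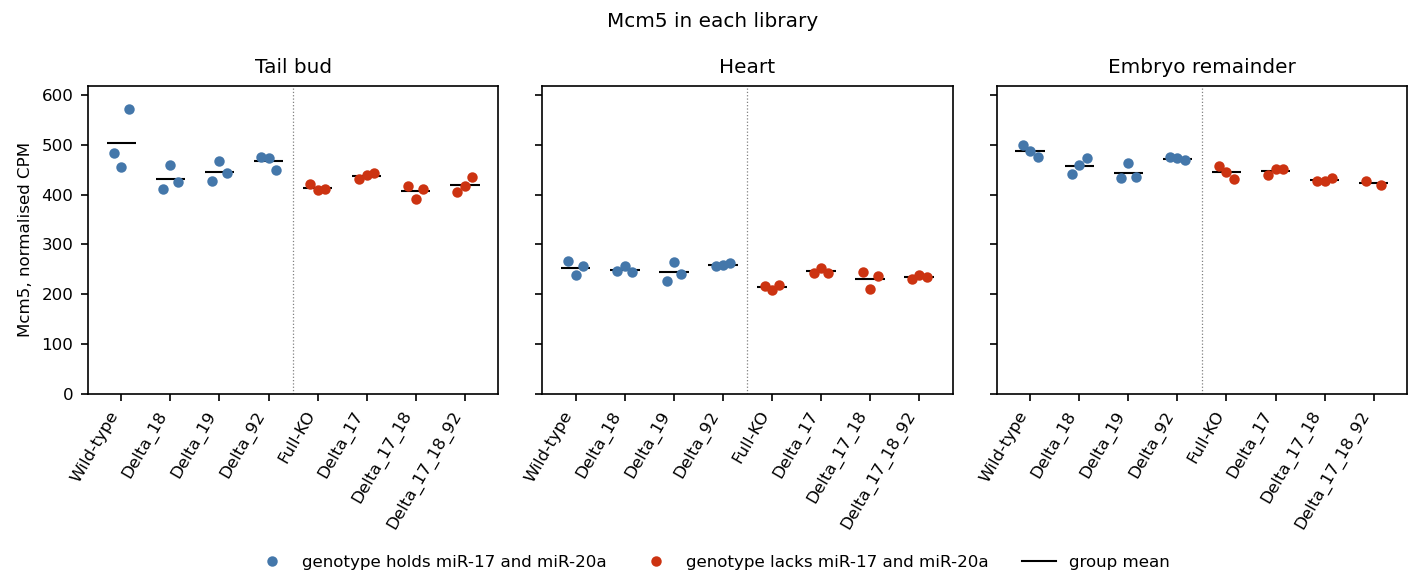
Mcm5 in each library as TMM-normalised CPM (y axis, from 0) by genotype and tissue, with group means as bars and colours for genotypes that hold (blue) or lack (red) miR-17 and miR-20a. The wild-type tail bud library at 573 CPM stands above all other tail bud libraries, and the ranges of red and blue overlap in each panel.

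Mcm7, the other gene with a miR-17 match, rose past the threshold in 1 of the 21 comparisons, Delta_17 in the embryo remainder. In the embryo remainder wild-type libraries were at 260, 262 and 253 CPM and Delta_17 at 279, 286 and 289, a rise of 0.14 ± 0.04 (adjusted p = 0.0332). Full-KO libraries, at 290, 280 and 270 CPM, were also all above wild type but did not pass (0.11, adjusted p = 0.0599). The Delta_17 call held only when its replicate 1 was the library left out and was otherwise at up to 0.188. The miR-17 term of Mcm7 in the embryo remainder, 0.15 ± 0.03 (adjusted p = 0.000145), passed in every fit that left out 1 library. It was -0.03 ± 0.03 in heart (0.668) and 0.08 ± 0.04 in tail bud (0.257), where it passed without wild-type replicate 3 (0.10 ± 0.03, 0.0249). Mcm7 shares 321 exon bases with Ap4m1 and 64 with Cops6 on the opposite strand, and the strand setting of the counting is not given, so a part of its counts may belong to them.

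Cdt1, the loading factor that geminin inhibits, rose in the embryo remainder in Full-KO and Delta_17_18. Wild-type libraries stood at 108, 116 and 110 CPM, Full-KO at 131, 125 and 124, and Delta_17_18 at 131, 128 and 123. The changes were 0.18 ± 0.05 (adjusted p = 0.0438) and 0.19 ± 0.05 (0.0447), close to the threshold, and both held only when wild-type replicate 2 was the library left out (others up to 0.169 and 0.186). No mutant library of these 2 groups overlapped wild type. In Delta_17_18_92 of the same tissue Cdt1 was at -0.05 (adjusted p = 0.7525). Delta_17 was at 0.07, Delta_18 and Delta_19 at 0.12 each and Delta_92 at 0.08, none past the threshold. In heart the values of Cdt1 had both signs, from -0.14 in Delta_17 to 0.17 in Delta_19, with no call.

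Mcm2 and Mcm6 fell in 1 group each, Delta_17_18_92 in the embryo remainder, which had 2 libraries. Mcm2 was at 413, 441 and 422 CPM in wild type and at 380 and 377 there (-0.18 ± 0.04, adjusted p = 0.0101). Mcm6 was at 488, 487 and 470 CPM in wild type and at 438 and 429 there (-0.16 ± 0.04, adjusted p = 0.0164). In this group 2 lists of cell type markers stood wholly above wild type, 10 cardiomyocyte markers at 407.8 to 591.7 summed CPM against 247 to 320.5 and 6 endothelial markers at 396.9 to 421.8 against 350.5 to 368.2. Another 2 stood wholly below it, 7 erythroid markers at 1994 to 2062 against 2432 to 3643 and 4 somite markers at 148.9 to 151.1 against 157.6 to 164. The part of these markers in the Mcm2 and Mcm6 differences was not tested. The Mcm2 call was lost without wild-type replicate 2 or either mutant library (up to 0.125), and the Mcm6 call held only when wild-type replicate 3 was the one left out (up to 0.203).

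The remaining genes, Mcm4 of the ring, the loader Cdc6 and the activators Cdc45 and Mcm10, passed in none of the 21 comparisons. By edgeR their lowest adjusted p-values were 0.0584 for Mcm4, 0.108 for Cdc6, 0.166 for Cdc45 and 0.161 for Mcm10. DESeq2 called Mcm4 lower in Full-KO in tail bud and heart and in Delta_17_18_92 in the embryo remainder, and called none of the other 3. The log2 values of Mcm4 were below 0 in 21 of 21 comparisons, all of them small, from -0.14 to -0.02, and those of Delta_18, Delta_19 and Delta_92 in heart turned to 0.01, 0.03 and 0.03 without wild-type replicate 3. Over the 8 genes other than Mcm3 and Mcm5, 168 log2 values lay between -0.20 and 0.19, and 5 were called.

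**Figure D4:**
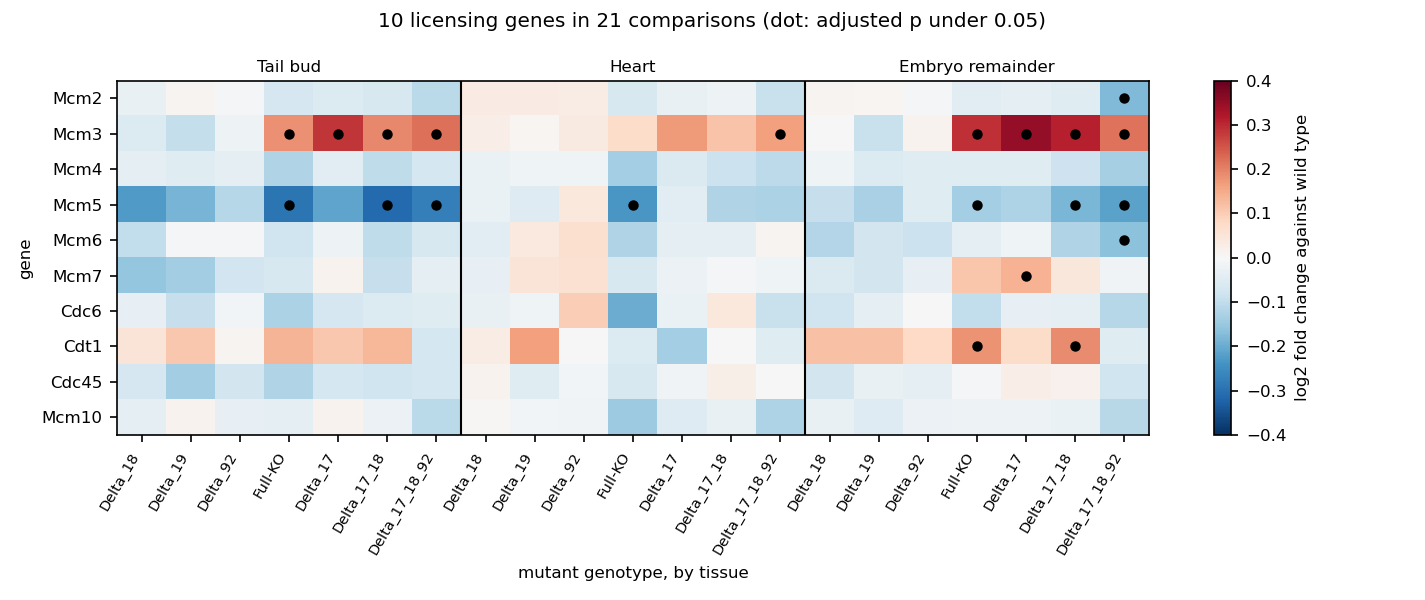
Log2 fold changes against wild type (colour, red higher and blue lower) of the 10 genes (rows) in 7 mutant genotypes of each tissue (columns), with a dot where the adjusted p was under 0.05. The 9 dots of the Mcm3 row and the 7 of the Mcm5 row stand under genotypes without miR-17 and miR-20a, and 5 further dots fall in the embryo remainder.

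Counted by comparison, the genes called stood against the share of all genes called in the same fit. In tail bud, 1 gene rose and 1 fell in Full-KO, in Delta_17_18 and in Delta_17_18_92, where 10.4%, 8.31% and 5.57% of all 17009 genes tested passed, and 1 rose in Delta_17 (1.77%). In heart 1 fell in Full-KO (3.91% of 16750 genes), 1 rose in Delta_17_18_92 (1.89%), and none passed in Delta_17 (0.555%) or Delta_17_18 (1.12%). In the embryo remainder 2 rose and 1 fell in Full-KO (6.66% of 17512 genes), 2 rose in Delta_17 (1.56%), 2 rose and 1 fell in Delta_17_18 (4.44%), and 1 rose and 3 fell in Delta_17_18_92 (5.62%). Without wild-type tail bud replicate 3 the shares in tail bud were smaller, 4.47% in Full-KO (771 of 17235 genes), 2.54% in Delta_17_18 and 2.90% in Delta_17_18_92, and 1 of the 10 genes passed in each, Mcm5 in the first 2 and Mcm3 in the last.

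The genotypes that hold miR-17 and miR-20a gave no call for any of the 10 genes by edgeR. The share of all genes called was 0.129%, 1.03% and 0.359% in Delta_18, Delta_19 and Delta_92 of tail bud, 0.0418%, 0.406% and 0.0716% of heart, and 0.36%, 1.88% and 0.588% of the embryo remainder. Unadjusted p-values under 0.05 numbered 3, 3 and 0 of 10 in tail bud, 0, 1 and 0 in heart and 3, 3 and 1 in the embryo remainder. The share of all genes at that unadjusted cut is not given here, so these counts cannot be set against it. DESeq2 called Mcm6 lower in Delta_18 (-0.12) and Mcm5 lower in Delta_19 (-0.13), both in the embryo remainder, and none in Delta_92. The median log2 value of the 10 genes lay between -0.11 and 0.03 over the 21 comparisons, and that of all genes between -0.01 and 0.01.

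By family term, the miR-17 term called 1 of 10 genes in tail bud (5.44% of all genes), 1 in heart (3.61%) and 2 in the embryo remainder (7.49%), which are Mcm3 in each and Mcm7 in the last. The miR-18 term called none (0.323%, 0.0896% and 0.748% of all genes in tail bud, heart and embryo remainder), nor did miR-19 (5.33%, 4.37% and 6.59%) or miR-92 (3.66%, 1.58% and 5.18%). Unadjusted p-values under 0.05 numbered 3, 1 and 3 for miR-18, 3, 3 and 0 for miR-19 and 1, 0 and 0 for miR-92. With DESeq2, miR-18 called Mcm6 in tail bud (-0.08) and miR-19 called Mcm5 in heart (-0.09). A test by edgeR of departure from additivity passed for none of the 10 genes, with Mcm7 in the embryo remainder lowest (adjusted p = 0.316), and for only 0.0176%, 0.0597% and 0.103% of all genes in tail bud, heart and the embryo remainder. Unadjusted p-values under 0.05 numbered 0, 1 and 6 of the 10 (Mcm2, Mcm3, Mcm5, Mcm6, Mcm7 and Cdt1 in the embryo remainder). The share of all genes at the unadjusted cut is not given here for the family terms or for departure from additivity. The unadjusted counts of the 10 genes therefore cannot be set against it.

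Whether the knockout acts alike across tissues was tested in the 18 wild-type and Full-KO libraries. None of the 10 genes passed by edgeR, beside 0.0399% of all 17548 genes, and DESeq2 called none. By edgeR 2 had an unadjusted p under 0.05 (Mcm3, 0.00535, and Cdt1, 0.0207), beside 1259 of the 17548 genes. The same question put to the miR-17 term over all 71 libraries, a test added after seeing the data, passed for Mcm3 alone of the 10 (adjusted p = 0.00293, with 0.281% of 18875 genes called). The Mcm3 term differed by -0.17 ± 0.04 for heart minus tail bud, by -0.21 ± 0.04 for heart minus the embryo remainder (adjusted p = 0.00352) and by 0.04 ± 0.04 for the embryo remainder minus tail bud. The labels do not say whether same-numbered libraries of a genotype come from the same embryos. With a block for each number within a genotype Mcm3 again passed alone of the 10 (adjusted p = 8.99e-05, with 0.572% of all genes called, heart minus the embryo remainder -0.21 ± 0.03). Without the block, for Mcm7 the test gave an adjusted p of 0.160 and for Mcm5 0.995. With the block it gave 0.0524 for Mcm7 and 0.980 for Mcm5. The pair of heart minus the embryo remainder of Mcm7 was then -0.18 ± 0.04 (edgeR, adjusted p = 0.0268), and without the block -0.18 ± 0.05 (0.104).

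In wild type, all 10 genes were lower in heart than in tail bud and than in the embryo remainder. These comparisons call most genes, 68.6% and 68.1% of 16922, in nearly equal numbers up and down, whereas the 10 genes shared 1 direction. The fall was largest for Mcm10, whose heart libraries stood at 71.1, 69.3 and 74.5 CPM against 166, 168 and 143 in tail bud and 143, 152 and 147 in the embryo remainder (-1.16 ± 0.07 and -1.05 ± 0.07). Mcm5 and Mcm7 followed, with -0.997 ± 0.083 and -0.975 ± 0.076 against tail bud. Cdc45 fell least, from 75.5, 76.7 and 87.2 CPM in tail bud to 56.7, 60.5 and 57.3 in heart (-0.46 ± 0.07, adjusted p = 4.01e-05). The median change of the 10 genes was -0.61 against tail bud and -0.67 against the embryo remainder, beside -0.03 and -0.02 over all genes.

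Between tail bud and the embryo remainder of wild type, none of the 10 genes passed by edgeR, while 29.8% of all genes did, 1 (Mcm6) had an unadjusted p under 0.05, and DESeq2 called Mcm6. The log2 differences, tail bud minus the embryo remainder, ran from -0.14 for Mcm6 to 0.12 for Cdc45. Their approximate 95% intervals lay within -0.26 to 0.25. These use a normal quantile, which is too narrow for so few libraries. Without wild-type tail bud replicate 3, Mcm3 (0.15), Mcm10 (0.18) and Mcm6 (-0.14) passed.

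Tissue markers followed the labels. Summed CPM of 10 cardiomyocyte markers were at least 34030 in every heart library and at most 45.4 in tail bud and 592 in the embryo remainder, while tail bud markers reached 776 to 1305 CPM in tail bud and at most 47.2 elsewhere. Library totals ran from 13532012 to 27477273 counts, and a licensing gene had between 645 and 15894 counts in a library. The biological coefficient of variation was 6.47% in the embryo remainder, 8.74% in tail bud and 8.87% in heart. Mir17hg, the host gene of the cluster, was higher in Full-KO (1.48 ± 0.07 in tail bud), and since counts by gene do not show which part of the transcript was read, they do not check the deletion.

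**Figure D5:**
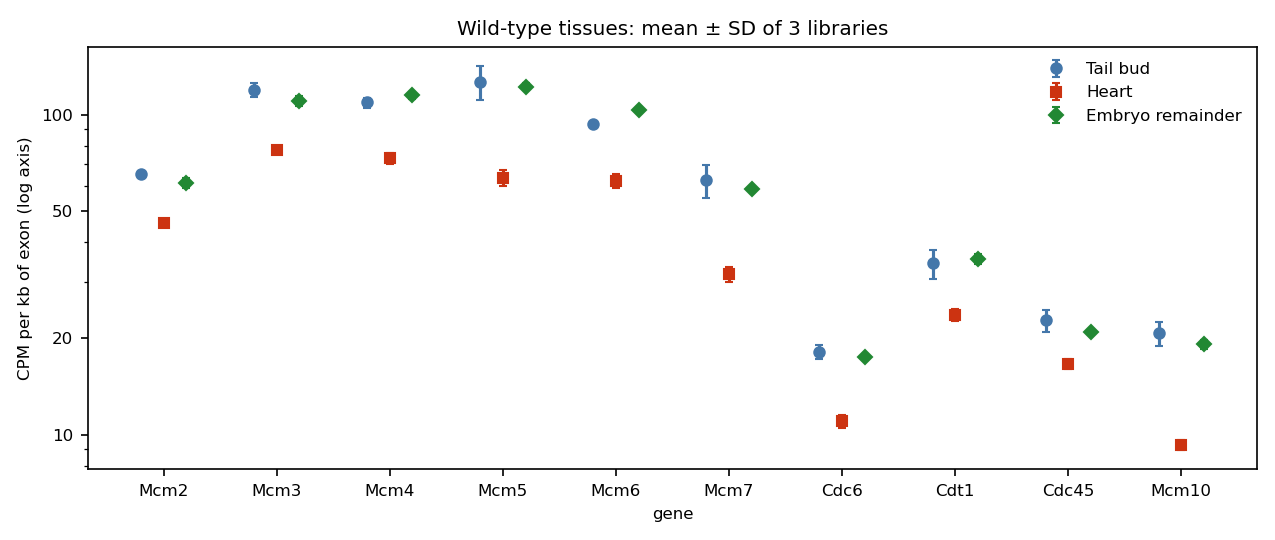
Level of each gene in the 3 wild-type tissues as CPM per kilobase of annotated exon (log axis), mean ± SD of 3 libraries. Every heart mean (red squares) lies below the tail bud and remainder means of the same gene, and Mcm3, Mcm4, Mcm5 and Mcm6 are the highest rows in each tissue.

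Per kilobase of exon, the subunits of the ring were the most abundant. In wild-type tail bud Mcm5 stood at 126 ± 15.4 CPM per kb (SD, n = 3), Mcm3 at 119 ± 5.87, Mcm4 at 109 ± 3.93 and Mcm6 at 93.4 ± 1.47, where the libraries of Mcm5 and Mcm3 overlapped and those of Mcm3, Mcm4 and Mcm6 did not. Mcm2 (65.3 ± 1.27) and Mcm7 (62.2 ± 7.41) came next and did not differ beyond their spread. The loaders and activators were lower, Cdt1 at 34.3 ± 3.54, Cdc45 at 22.8 ± 1.84, Mcm10 at 20.7 ± 1.81 and Cdc6 at 18.1 ± 0.93, with Mcm10 overlapping both Cdc45 and Cdc6, which did not overlap each other. In heart Cdc6 stood at 11.0 ± 0.52 and Mcm10 at 9.31 ± 0.34, without overlap. The order depends on which exons count. By the longest transcript Mcm2 stood at 130 ± 2.53 in tail bud, level with Mcm3 at 130 ± 6.41, and Cdc6 was below Mcm10 in both tissues, at 19.7 against 32.7 in tail bud and 12.0 against 14.7 in heart.

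The wider pathway was read from 77 genes in 7 lists. Like the 10 genes, most were lower in wild-type heart, 54 of 77 against tail bud with 7 higher, and 56 against the embryo remainder with 7 higher. In Full-KO, 4 rose and 12 fell in tail bud (20.8% of the 77, beside 10.4% of all genes), 1 rose and 7 fell in heart (10.4%, beside 3.91%), and 5 rose and 3 fell in the embryo remainder (10.4%, beside 6.66%). Without wild-type tail bud replicate 3, 2 rose and 5 fell in tail bud, where 4.47% of all genes passed.

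E2f1, the factor that drives many of these genes, rose in Full-KO by 0.33 ± 0.05 in the embryo remainder, 0.35 ± 0.06 in heart and 0.37 ± 0.06 in tail bud. Of the 16 genes for E2F and G1/S control, Ccnd1, a D-type cyclin, also rose in tail bud (0.25 ± 0.06) and the embryo remainder (0.26 ± 0.04). Ccne1, encoding cyclin E1, fell by 0.42, 0.44 and 0.33 in tail bud, heart and the embryo remainder, and Ccnd3 by 0.49, 0.22 and 0.36. In Full-KO of tail bud, heart and the embryo remainder, 1, 0 and 2 of the 10 licensing genes rose and 1 fell in each. Of all genes, 10.4%, 3.91% and 6.66% passed there in either direction.

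Of the 6 origin recognition genes, Orc6 fell in tail bud (-0.22 ± 0.06, adjusted p = 0.0222) and heart (-0.21 ± 0.06, 0.0339) and none passed in the embryo remainder. Gmnn, 1 of 13 genes in the list of the licensing inhibitor and origin firing, fell in the same tissues (-0.26 ± 0.08 and -0.24 ± 0.07), again with none in the embryo remainder. Among 20 replisome genes 1 rose and 5 fell in tail bud (Pole, 0.17 ± 0.05, Rfc2, -0.23 ± 0.06, and Prim2, -0.24 ± 0.06, among them), 1 fell in heart (Rpa1, -0.13 ± 0.04) and 1 rose in the embryo remainder (Rfc3, 0.17 ± 0.04).

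Tk1, an enzyme of thymidylate supply, fell in tail bud (-0.24 ± 0.07). Among 14 genes of G2 and mitosis 1 fell in tail bud, Birc5 (-0.25 ± 0.06), and none passed in the other tissues. None of the 3 MCM relatives outside the ring passed in any tissue. Of the changes named here for the wider pathway, those of E2f1, Ccnd3 and Ccne1 in all 3 tissues, Birc5 in tail bud, and Rfc3 and Ccnd1 in the embryo remainder passed in every fit that left out 1 library. The calls of Orc6, Gmnn, Pole, Rfc2, Prim2, Tk1, Rpa1 and, in tail bud, Ccnd1 were each lost in at least 1 such fit. Without wild-type replicate 3 the tail bud values moved to -0.11 for Gmnn, 0.08 for Pole, -0.13 for Rfc2, -0.13 for Orc6, -0.16 for Tk1 and -0.16 for Birc5. The Gmnn call in heart was also lost with the replicate number as a block (adjusted p = 0.0546).

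The promoters were searched for E2F-type motifs. RefSeq (GRCm38.p6) gave a promoter, 250 bases before to 50 after the start, for 9 of the 10 genes. The motifs TTTCCCGC, TTTCGCGC, TTTGCCGC and TTTGGCGC were searched on both strands, where a match on 1 strand can overlap a match on the other. The 9 genes had 10 promoters, since Mcm7 had 2, of which 1 held 2 matches and the other 0. Motifs stood in 6 of the 10 promoters, of Mcm3, Mcm5, Mcm6, Mcm7, Cdc6 and Cdt1. Of 32851 promoters of the same length, 2.26% held one. There were 2 or more matches in 4 of the 10, of Mcm3, Mcm5, Mcm6 and Mcm7, and in 0.0974% of all promoters. The promoters of Mcm3 (chr1:20820263-20820562, minus strand) and Mcm5 (chr8:75109259-75109558, plus strand) are shown because these genes moved in opposite directions, and each holds 2 matches, in capitals.
Mcm3 promoter: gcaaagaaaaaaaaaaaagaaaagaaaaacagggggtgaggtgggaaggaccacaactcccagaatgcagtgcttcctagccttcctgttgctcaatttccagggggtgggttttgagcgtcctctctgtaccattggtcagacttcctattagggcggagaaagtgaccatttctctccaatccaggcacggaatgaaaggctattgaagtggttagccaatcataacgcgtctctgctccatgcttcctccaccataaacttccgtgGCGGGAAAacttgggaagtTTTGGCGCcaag
Mcm5 promoter: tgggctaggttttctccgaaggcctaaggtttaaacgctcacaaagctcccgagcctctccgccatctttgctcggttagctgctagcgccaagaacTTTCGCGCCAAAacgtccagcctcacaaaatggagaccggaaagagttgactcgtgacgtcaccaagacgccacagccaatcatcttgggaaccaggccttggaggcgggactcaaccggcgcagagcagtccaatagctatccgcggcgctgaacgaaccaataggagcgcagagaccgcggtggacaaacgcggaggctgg
In Mcm5 the matches overlap each other, and in Mcm3 they lie apart. Mcm2, Mcm10 and Cdc45 had no match in this window.

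Most of the genes moved together between libraries. Over the 71 libraries, as deviations from the mean of their group, the 45 pairs among the 10 genes had Pearson correlations from -0.13 to 0.78 with a median of 0.46. Each gene against the mean of the other members ran from 0.34 (Cdc45) to 0.79 (Mcm3). The median of 10256 other genes against the mean of all 10 was 0.11, with 5% and 95% points of -0.30 and 0.49. Cdc45 and Cdt1 (0.41) lay below that 95% point. The other genes most like the mean of all 10 were Eftud2 (0.81), Rcc2 (0.80), Mybbp1a, Gart and Rcc1. Over the 24 group means, where tissue dominates, they were Pold3, Exo1, Ptbp1, Umps and Ddx27 (0.997 to 0.998). The 5% and 95% points of the other genes were then -0.98 and 0.98, so values near these ends were common. There Mcm3 was the member least like the mean of the other members, at 0.895. These correlations are descriptions over points that share libraries, tissue and depth.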

How the data were processed

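The authors deposited raw counts of reads by gene, in 1 table of 37620 genes and 71 libraries, 50-base reads from TruSeq libraries. Per the submitters' processing notes, the authors used STAR 2.3.0, SAMtools 0.1.14 and featureCounts (Subread 1.4.2) with the builds mm9 and NCBIM37. The annotation release, strand setting and handling of multi-mapping reads are not given in the sources used here, which bears on Mcm7 and on Cdc45, which shares 209 exon bases with Ufd1. Coordinates and sequences are from GRCm38.

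Each tissue was fitted with edgeR 4.0.16 under R 4.3.3, using TMM, filterByExpr on the genotype, robust quasi-likelihood tests and Benjamini-Hochberg adjustment over all genes, with a threshold of 0.05, checked on simulated data. The simulation gave every gene the same spread. Its rule for recovery was set at a larger fold than the genotype changes of the 10 genes. The check therefore does not show that changes of their size are recovered. The series text calls the replicates biological, with no further detail, and p-values measure the spread between these samples. All 70 replicate pairs differed beyond counting noise (chi-square per degree of freedom at least 2.52). Alternatives were DESeq2 1.42.0, RLE factors, no filter, 2 groups alone, a replicate block, leaving out libraries and longest-transcript lengths. The 10 genes, the lists and the tests were chosen with earlier results of these data known. Pathway genes were named by smallest p, up to 2 per list, direction and tissue in Full-KO; 135 of 136 listed genes matched. The results of 1 listed gene are not reported here.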

Additional observations from a re-analysis of the deposited data

Results flagged for a closer look

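The miR-17 term of Mcm3 differed between tissues. In a fit over all 71 libraries with a separate term in each tissue, chosen after seeing the data, heart minus the embryo remainder was -0.21 ± 0.04 on the log2 scale (edgeR, adjusted p = 0.00352 for this pair and 0.00293 over the 3 tissues). Fitted tissue by tissue, the term was above 0 in each, at 0.12 ± 0.03 in heart, 0.29 ± 0.03 in tail bud and 0.33 ± 0.03 in the embryo remainder. Wild-type heart also held less Mcm3 than the other tissues, 291 ± 5.81 CPM against 447 ± 22.0 in tail bud and 413 ± 14.2 in the embryo remainder (SD, n = 3), and whether the 2 differences are connected was not tested. The narrower test of Full-KO against wild type across tissues did not pass for Mcm3 (adjusted p = 0.446).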

How the results depend on the processing

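Of the values of the 10 genes, none of the 45 called ones (21 by genotype, 4 by family term, 20 by tissue) changed sign under any alternative run. Of those not called, 66 of 189 by genotype, 37 of 116 by family term and 3 of 10 by tissue did in at least 1, the largest of them 0.09 in size. Among these, Mcm3 in Delta_92 of tail bud was -0.02 and ranged from -0.053 to 0.020 when 1 library was left out, turning above 0 without wild-type replicate 1 or Delta_92 replicate 3 (0.014). Over the 21 comparisons of a mutant genotype with wild type, 21 calls were made with edgeR, 21 with RLE factors, 17 without the filter on low counts, 31 with DESeq2, 13 when only the 2 groups compared were fitted, and 16 to 25 when 1 library was left out. Over all genes in Full-KO, edgeR called 1776 of 17009 in tail bud, 655 of 16750 in heart and 1167 of 17512 in the embryo remainder. DESeq2 called 2239 of 13379, 860 of 12202 and 1149 of 13433, and the fit of 2 groups alone 198 of 16107, 1010 of 15586 and 1199 of 16248. For the 10 genes by genotype, DESeq2 made 6 calls in Delta_17 instead of 3, and 1 in Delta_18 and 1 in Delta_19 instead of 0. The fit of 2 groups alone gave 3 calls in Delta_17_18 instead of 5 and 4 in Delta_17_18_92 instead of 7. Leaving out 1 library gave 0 to 2 calls in Delta_18 (Mcm5 and Mcm7 without wild-type tail bud replicate 2), 0 to 1 in Delta_19, and 4 to 7 in Delta_17_18_92. The family terms gave 4 calls, 7 with DESeq2 and 7 without the Full-KO libraries, with 1 for miR-18 and 1 for miR-19 in each of these 2 settings, and 0 to 1 for miR-19 when 1 library was left out. Between wild-type tail bud and the embryo remainder DESeq2 called 1, and 0 to 3 were called when 1 library was left out. The miR-17 term by tissue, added after seeing the data, called 1 gene (Mcm3), and again 1 with a replicate block within each genotype, where the Full-KO test across tissues called 0. The causes were not tested.

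The labels do not pair same-numbered samples, and every pair of their deviations was correlated over 0.1 in 2 of 21 genotype and 16 of 24 tissue comparisons. With the replicate block, the calls numbered 21 over the genotypes, 4 over the family terms, 20 over wild-type tissues and 0 for the Full-KO effect across tissues, the same counts as without it, and of the pathway genes named the Gmnn call in heart was lost (adjusted p = 0.0546). The lowest count of any of the 10 genes in a library was 645, so the number of libraries limits the precision more than counting does.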
